A study of Mus musculus with 5 samples.

Results

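The 10 genes described here are cadherins and factors of the epithelial-mesenchymal transition, measured by RNA-seq in the embryonic mouse pituitary at e12.5. They are Cdh1, Cdh3 and Epcam of epithelial adhesion, Cdh2 and Cdh11 of mesenchymal and neural adhesion, the repressors Snai1, Snai2, Zeb1 and Zeb2, and the intermediate filament gene Vim. Members were taken by gene name from the all-gene table, with the longest region per name, and all 10 were found among 20097 names. The libraries were 2 labelled knockout (Itgb1 f/f; Pitx1-cre), called libraries 13 and 16, and 3 littermate controls (Itgb1 f/f without Cre, 9, 10 and 12), all of B6;129 strain and described as separate biological replicates. Pitx1-cre acts in the oral ectoderm and the pouch derived from it, so cells of other origin in a gland, such as mesenchyme, vessels and neural tissue, would keep Itgb1. The study compares glands with and without Itgb1, which encodes integrin beta 1, the shared subunit of many receptors for extracellular matrix.

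Cadherins are calcium-dependent adhesion proteins that join cells carrying the same cadherin, and catenins tie them to actin. E-cadherin (Cdh1) is characteristic of epithelia, while N-cadherin (Cdh2) and cadherin 11 (Cdh11) are typical of neural and mesenchymal cells. SNAIL and ZEB proteins repress Cdh1 by binding E-boxes, and a fall in E-cadherin with a gain of N-cadherin and vimentin is the textbook sign of the transition. At e12.5 the anterior pituitary is an epithelial pouch that lies between head mesenchyme and the ventral diencephalon.

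The E-box that SNAIL and ZEB factors bind was looked for in promoters of the members. Windows are printed for 3 of them. Epcam and Vim had the highest control levels per kilobase of the members, and Snai1 is one of the repressors. RefSeq promoter sequences (GRCm38.p6) were matched for 4 members, Epcam, Snai1, Vim and Zeb2. Each line gives the 250 bases before the gene start on the plus strand, 5′ to 3′, and capitals mark CACCTG on either strand (read as CACCTG or CAGGTG).
Epcam, chr17:87635729-87635978: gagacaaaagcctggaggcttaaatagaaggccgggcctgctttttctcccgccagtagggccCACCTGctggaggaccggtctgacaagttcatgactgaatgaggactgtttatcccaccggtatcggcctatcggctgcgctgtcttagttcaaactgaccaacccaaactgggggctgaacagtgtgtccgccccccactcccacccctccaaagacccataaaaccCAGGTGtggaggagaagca
Snai1, chr2:167537945-167538194: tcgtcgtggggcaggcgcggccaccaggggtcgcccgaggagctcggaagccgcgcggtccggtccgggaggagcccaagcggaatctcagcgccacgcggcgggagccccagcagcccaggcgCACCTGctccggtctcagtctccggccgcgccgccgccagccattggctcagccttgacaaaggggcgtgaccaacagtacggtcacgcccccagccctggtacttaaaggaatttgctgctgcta
Vim, chr2:13574061-13574310: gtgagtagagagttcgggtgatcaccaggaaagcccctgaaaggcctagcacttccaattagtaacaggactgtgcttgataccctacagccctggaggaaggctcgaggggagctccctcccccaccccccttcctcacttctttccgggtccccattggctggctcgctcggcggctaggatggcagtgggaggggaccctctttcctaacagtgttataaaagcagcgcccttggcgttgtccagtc

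The Epcam window holds 2 matches, the Snai1 window 1 and the Vim window 0. Zeb2, also a repressor, has 4 windows that are not printed, and 0 of them hold a match. Of 32851 promoter windows of the same length, 17.2% hold at least 1 match and 2.06% hold 2 or more. A match of letters is not a binding site, and none of these data measure binding.

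Values are tags per 10000000 total tags, and 1 read is worth 0.909 tags. Reads recovered over the listed genes numbered 4480810 to 5507291 in the knockout libraries and 5445244 to 6143269 in the controls. Because the median gene was 0.97 higher on the log2 scale in the knockout libraries before scaling, levels below are TMM-scaled unless called deposited, which means that each library was multiplied by a factor that aligns the bulk of its genes with the others. Library 16 stood apart from the other 4. Olfactory and vomeronasal receptor genes, silent in most tissues, carried 0.472 and 1.497 tags per kilobase in libraries 13 and 16, against 0.156 to 0.395 in the controls. This rate, times a region's length, is called background below and was subtracted in a second set of values that was then TMM-scaled again. Itgb1 itself, read over its whole region and not over the deleted part, was at 340 and 106 in libraries 13 and 16, against 449, 428 and 602 in the controls. On deposited values library 13 was at 446, above the highest control at 431, so library 13 went against its label on deposited values and followed it after scaling.

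**Figure D1:**
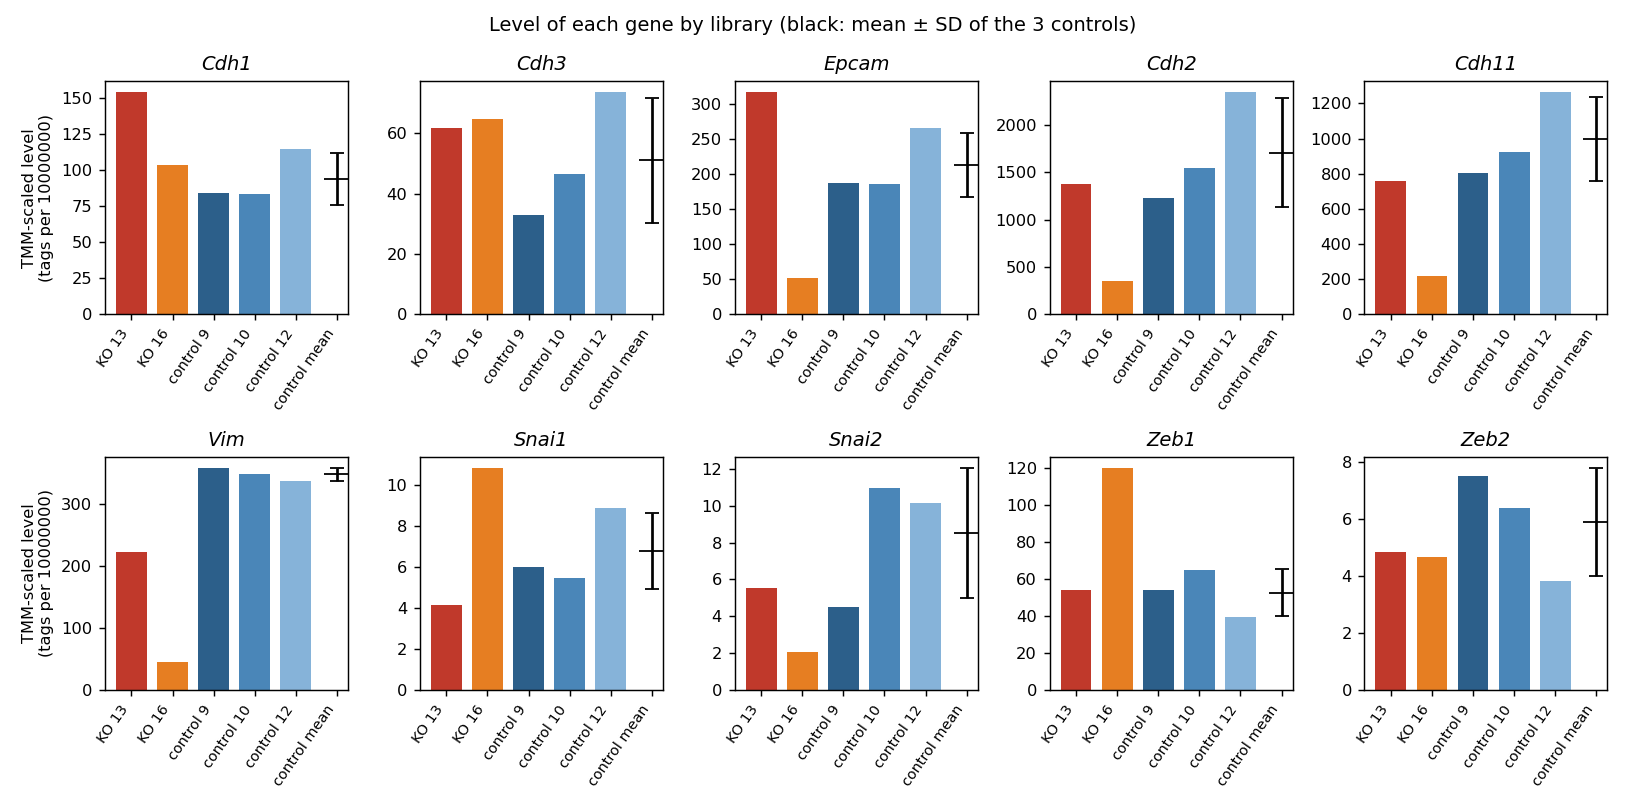
TMM-scaled level of each of the 10 genes (vertical axis from 0, tags per 10000000, own scale per gene) in the 2 knockout and 3 control libraries, with the mean ± SD of the controls as a black mark on the right. Vim and Cdh11 lie below every control in both knockout libraries, while Epcam lies above every control in library 13 and below every control in library 16.

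Levels differed widely between the members within control glands. Per kilobase of listed region, which spans introns, the TMM-scaled control level was highest for Vim at 45.2 ± 1.33 (SD, n = 3), followed by Epcam at 14.8 ± 3.18. Next came Cdh2 at 7.78 ± 2.63 and Cdh11 at 6.59 ± 1.58, whose ranges over the controls overlapped. Cdh1 was at 1.42 ± 0.27 and Cdh3 at 1.13 ± 0.46, also with overlapping ranges. Zeb1 was lowest at 0.53 ± 0.13. Vim thus stood above 99.0% of the 19313 tested genes on this scale, Epcam above 96.7% and Cdh1 above 52.1%.

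The order depended on the length used. Divided by the exonic length of the longest protein-coding transcript (GENCODE M21), as if every tag were exonic and chosen after the data were seen, the control level was highest for Cdh2 at 353 ± 119 tags per exonic kilobase (SD, n = 3). Cdh11 followed at 177 ± 42.3, Vim at 159 ± 4.68, Epcam at 104 ± 22.4 and Cdh1 at 21.2 ± 4.01. The ranges of Cdh11 and Vim overlapped. On both lengths, Cdh2 and Cdh11 were above Cdh1 and Cdh3 in every control. The labels name epithelial pituitary cells. The 2 cadherins typical of mesenchymal and neural cells stood above Cdh1 and Cdh3 per kilobase, and the cells that carried them were not separated.

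Reads fell on markers of several tissues. Of 8 markers each for the pouch and for epithelium in general, none was at 0 in all libraries. The same held for 10 markers of head mesenchyme and 8 of neural tissue. Background alone also puts reads on a region, so this does not show that each marker was expressed. The summed level of the pouch markers, of which Six6, Sox2 and Pitx1 were highest per kilobase in the controls, was 942 and 267 in libraries 13 and 16, against 613 to 862 in the controls. Markers of head mesenchyme summed to 1061 and 574 in libraries 13 and 16, against 1187 to 1391 in the controls. With background subtracted those sums were 833 and 581, against 1001 to 1086. The markers of head mesenchyme did not all go 1 way. Before subtraction, 5 of 10 lay below all controls in both knockout libraries, against 6.80% of all tested genes. Prrx2 lay above all controls in both, at 29.1 and 59.9 against 12.7 to 25.4, as did 8.50% of all tested genes. Neural markers summed to 855 and 706, against 1011 to 1160 in the controls. Much of that sum was Map2, at 516 and 274 in libraries 13 and 16, against 597 to 697. The neural markers did not all go 1 way either. In both knockout libraries 3 of 8 lay below all controls. In library 16 Elavl3 and Elavl4 lay above all controls, at 82.1 against 34.3 to 67.4 and at 171 against 68.5 to 126. The 8 markers of general epithelium, which include Cdh1 and Epcam, summed to 1535 and 552 in libraries 13 and 16, against 966 to 1358 in the controls. Library 16 was thus below all controls in the sums of the pouch, of epithelium, of mesenchyme and of neural tissue. Library 13 was below all controls in the sums of mesenchyme and neural tissue. It was above all controls in the sums of the pouch and of epithelium. Sums for endothelium were 545 and 713 in libraries 13 and 16, against 561 to 590 in the controls, and those for the 5 measured macrophage markers were 121 and 247, against 102 to 151. The 4 measured erythroid markers summed to 218 and 344, against 290 to 618 in the controls. Library 13 lay below all controls in the endothelial and erythroid sums too, while library 16 lay above all controls in the endothelial and macrophage sums. The part of these shifts in the values of the members was not tested. In bulk tissue, fewer cells of a type and less RNA per cell cannot be told apart.

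No member passed the test between genotypes. With limma over 19313 genes, 0 of 10 members and 0.00% of all tested genes had a Benjamini-Hochberg adjusted p under 0.05. Before adjustment, 2 of 10 members, Vim and Cdh11, had a p under 0.05, as did 2.00% of all tested genes (386 genes). The quasi-likelihood test of edgeR on recovered reads called 0 genes too, with 457 at an unadjusted p under 0.05. DESeq2 called 25, and 8 of the members received no adjusted p from it, Vim among them, while Cdh2 and Cdh11 had an adjusted p of 0.697. The median log2 change was -0.46 over the members and 0.04 over all tested genes. The authors' deposited table lists 1140 changed genes, beside 20097 names in the all-gene table. It holds 0 of the 10 members, which are too few to set against so small a share.

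Vim, which encodes vimentin, the intermediate filament of mesenchymal and neuroepithelial cells, had the lowest p of the members. Its region (mm9 chromosome 2, 13496738 to 13504453) held 223 and 44.4 in libraries 13 and 16, against 359, 349 and 339 in controls 9, 10 and 12. Both knockout libraries lay below the controls, whose spread was small at 349 ± 10.3 (SD, n = 3). The levels of libraries 13 and 16 were 0.64 and 0.127 of the control mean. Its log2 change was -1.79 (SE 0.57, limma, adjusted p = 0.767). With background subtracted Vim was at 192 and 66.6 in libraries 13 and 16, against 256 to 334 in the controls, so the order held. Estimated background was 1.2% and 14.8% of its tags in libraries 13 and 16. On deposited values library 13, at 293, was within the controls at 218 to 347. Without library 16 the log2 change was -0.64 (adjusted p = 1), and without library 13 it was -2.94 (adjusted p = 0.0117). In that fit of library 16 alone, 4 of 10 members were called, Vim, Cdh11, Cdh2 and Epcam, against 12.6% of all tested genes. With background subtracted the same 4 members were called, against 16.1%.

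Cdh11, a type II cadherin of mesenchyme, showed the same order at a smaller size. Its region (mm9 chromosome 8, 105157295 to 105308611) held 761 and 217 in libraries 13 and 16, against 803, 925 and 1264 in controls 9, 10 and 12. Library 13 lay just under the lowest control and library 16 far under it. Cdh11 had a log2 change of -1.26 (SE 0.52, limma, adjusted p = 0.767). With background subtracted it was at 615 and 156 in libraries 13 and 16, against 694 to 936 in the controls. Without library 16 the log2 change was -0.36 (adjusted p = 1), and the library 16 value alone passed the test (adjusted p = 0.0156).

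Cdh2 was at 1374 and 352 in libraries 13 and 16, against 1226, 1548 and 2348 in controls 9, 10 and 12. Library 13 was within the controls and library 16 was below all of them. Its region (mm9 chromosome 18, 16747786 to 16967158) is the longest of the members at 219 kb, and background made up 5.7% of its tags in library 13 and 53.0% in library 16, against 2.0% to 7.6% in the controls. With background subtracted it was at 1126 and 292, against 1065 to 1750 in the controls. The log2 change was -1.24 (SE 0.57, limma, adjusted p = 0.767), -0.26 (adjusted p = 1) without library 16 and -2.22 (adjusted p = 0.0233) without library 13.

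Lying below all controls in both knockout libraries was thus seen for 2 of 10 members, Vim and Cdh11, and for 6.80% of all tested genes. An exact permutation test of 2 against 3 libraries could not go below 0.1, so the order is a description. With background subtracted the count was again 2 of 10 members, against 7.60% of 18013 genes. Before scaling it was 0 of 10, against 0.202% of all tested genes. In library 16 alone, 5 of 10 members lay below all controls, against 39.5% of all tested genes, and in library 13 alone 3 of 10, against 16.3%. Above all controls were 2 of 10 members in library 13 and 2 of 10 in library 16, against 20.9% and 44.0% of all tested genes, and 0 of 10 in both, against 8.50%.

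Subtracting background left these counts much the same. Below all controls were 3 of 10 members in library 13 and 5 of 10 in library 16, against 20% and 39.3% of genes, and above all controls were 2 of 10 and 3 of 10, against 23.8% and 42.4%. On deposited values the bulk of genes was higher in both knockout libraries, and so were several members. Cdh1, Cdh3 and Zeb1 lay above all controls in both libraries, or 3 of 10 members, against 50.2% of all tested genes. In library 13, 6 of 10 lay above and 0 of 10 below all controls, against 73.3% and 1.46%. In library 16, 5 of 10 lay above and 4 of 10 below, against 72.9% and 7.86%. Epcam, Cdh2 and Cdh11 lay above all controls in library 13 and below all in library 16, or 3 of 10, against 6.98%.

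**Figure D2:**
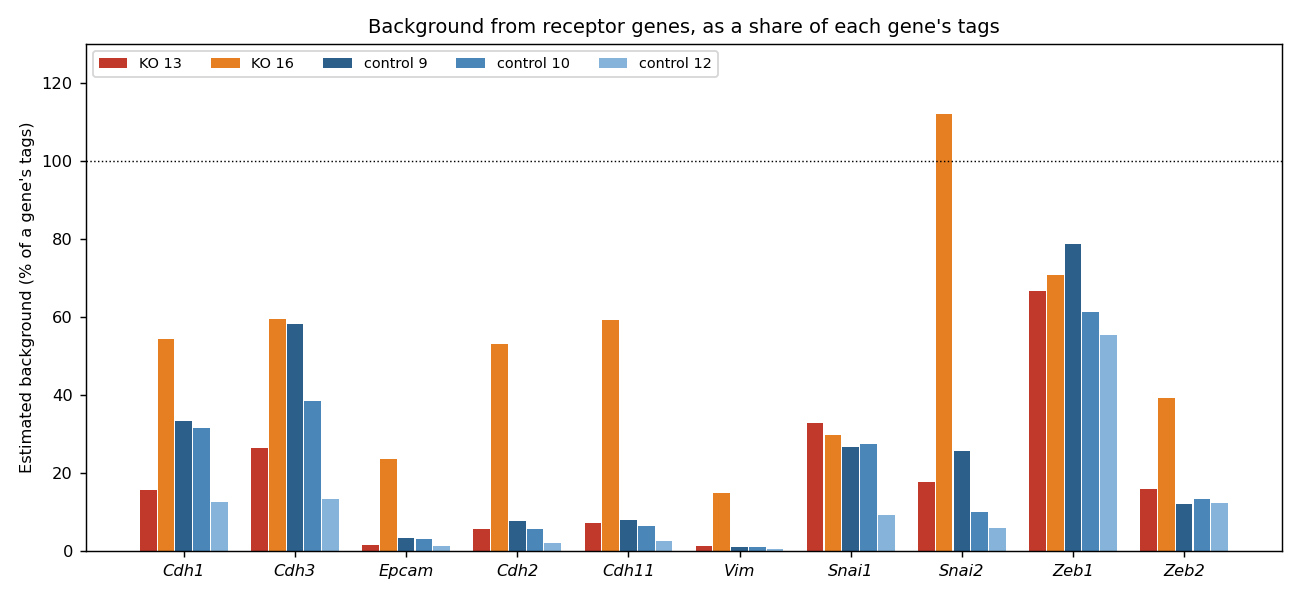
Estimated background as a percent of the deposited tags of each gene (vertical axis) in each library, with the dotted line at 100%. In library 16 background made up 53.0% to 59.5% of the tags of Cdh1, Cdh3, Cdh2 and Cdh11, but 14.8% for Vim.

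The epithelial cadherins did not share the lower values of Vim and Cdh11. Cdh1 (mm9 chromosome 8, 109128068 to 109194146) was at 154 and 103 in libraries 13 and 16, against 83.9, 83.1 and 114 in controls 9, 10 and 12. Library 13 lay above every control and library 16 within them. With background subtracted Cdh1 was at 113 and 82.9 in libraries 13 and 16, against 52.5, 52.0 and 75.9 in the controls, and both knockout libraries then lay above every control. That order held for 1 of 10 members, against 8.85% of 18013 genes. Cdh1 had a log2 change of 0.44 (SE 0.38, limma, adjusted p = 0.767), and 0.70 with background subtracted (adjusted p = 0.827). Background was 15.5% and 54.4% of the Cdh1 tags in libraries 13 and 16, against 12.6% to 33.4% in the controls. The part of background in this order was not tested beyond the subtraction.

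Cdh3, which encodes P-cadherin and lies next to Cdh1 on chromosome 8, was at 61.7 and 64.5 in libraries 13 and 16, against 32.9, 46.6 and 73.6 in the controls. Both knockout libraries were within the controls. Control 9 held 22 reads, which give a deposited value of 20 with a 95% exact Poisson interval of 12.53 to 30.28, for counting error only. Its log2 change was 0.38 (SE 0.44, limma, adjusted p = 0.785).

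Epcam, a homophilic adhesion protein of epithelia, split the 2 knockout libraries. Its region (mm9 chromosome 17, 88036119 to 88050467), with the promoter shown above, held 317 and 51.6 in libraries 13 and 16, against 187, 185 and 265 in the controls. Library 13 was 1.49 times the control mean and library 16 was 0.243 times it. With background subtracted, the levels were 271 and 69.4 in libraries 13 and 16, against 164 to 199 in the controls, and the split remained. The log2 change of -0.70 (SE 0.63, limma, adjusted p = 0.767) therefore describes neither library. It was 0.59 (adjusted p = 1) without library 16 and -2.00 (adjusted p = 0.0155) without library 13. Lying above all controls in library 13 and below all in library 16 was seen for 1 of 10 members, against 9.76% of all tested genes. With background subtracted it was again 1 of 10, against 11.7%.

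**Figure D3:**
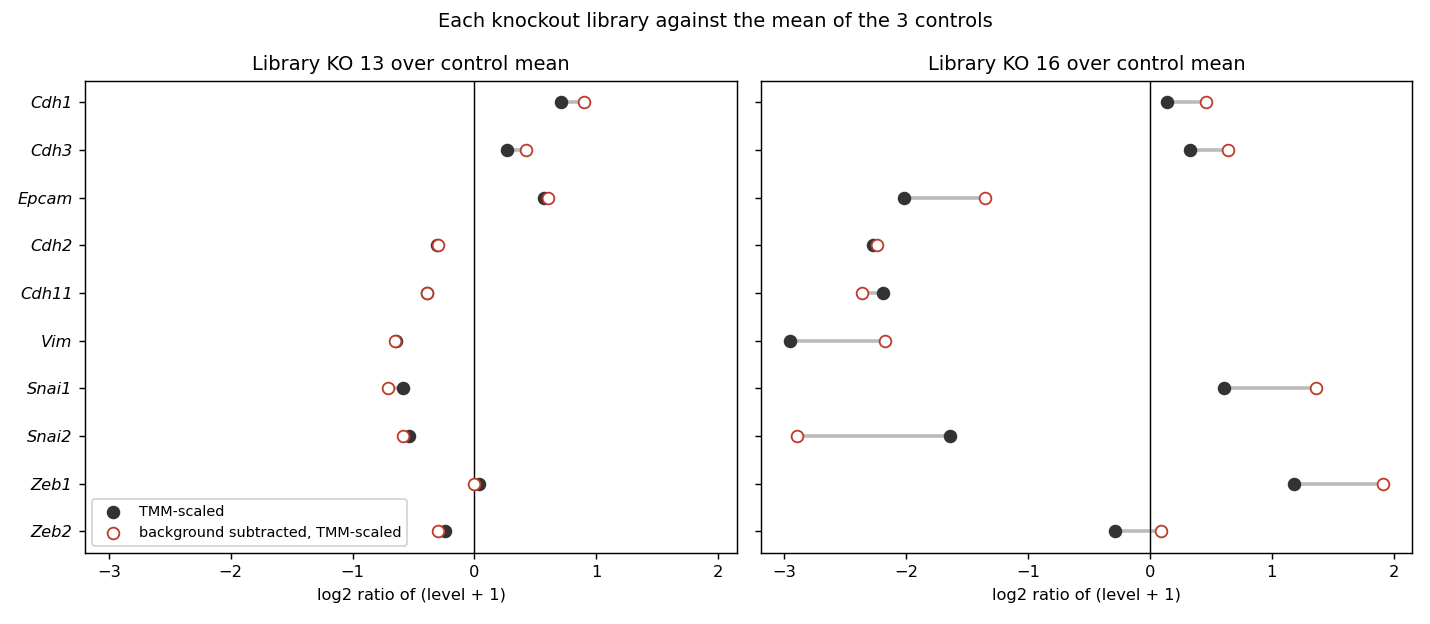
log2 ratio of (level + 1) in library 13 (left) and library 16 (right) to the control mean for each gene, before (filled) and after (open) background subtraction. Cdh1 and Cdh3 lie right of 0 and Cdh2, Cdh11, Vim and Snai2 left of 0 in both libraries, on either set of values.

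Ratios of 2 genes within a library do not depend on scaling between libraries. From deposited tags, Cdh1 over Cdh2 was 0.112 and 0.293 in libraries 13 and 16, against 0.0684, 0.0537 and 0.0487 in controls 9, 10 and 12. Both knockout ratios lay above every control. With background subtracted the ratio was 0.101 and 0.284 in libraries 13 and 16, against 0.0493, 0.039 and 0.0434 in the controls. Cdh1 over Cdh11 followed the same order, at 0.202 and 0.475 against 0.0898 to 0.104 in the controls. On the log2 scale per kilobase of region, Cdh1 over Cdh2 was -1.43 and -0.04 in libraries 13 and 16, against -2.42 ± 0.25 (SD, n = 3) in the controls.

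Epcam over Vim was 1.42 and 1.16 in libraries 13 and 16, against 0.521, 0.531 and 0.783 in the controls. Here too the groups did not overlap, although Epcam alone was on opposite sides of the controls in the 2 knockout libraries. The ratio was 1.41 and 1.04 with background subtracted, against 0.509 to 0.777 in the controls. The ratio between the 2 mesenchymal and neural cadherins did not separate the groups. Cdh2 over Cdh11 was 1.80 and 1.62 in libraries 13 and 16, against 1.53 to 1.86 in the controls. Epcam over Cdh2 did not separate them on deposited tags either, at 0.231 and 0.147 in libraries 13 and 16, against 0.153, 0.12 and 0.113 in the controls, since library 16 was within the controls. With background subtracted that ratio was 0.241 and 0.238 in libraries 13 and 16, against 0.114 to 0.16 in the controls, and the groups no longer overlapped. Epcam over Cdh1 was below every control in both knockout libraries, at 2.06 and 0.50 in libraries 13 and 16, against 2.23 to 2.32 in the controls. Library 13 lay just under the controls and library 16 far under them. That order held with background subtracted, at 2.40 and 0.837 in libraries 13 and 16, against 2.63 to 3.24 in the controls. Vim over Cdh2 did not separate the groups, at 0.163 and 0.126 in libraries 13 and 16, against 0.144 to 0.293 in the controls. Nor did Cdh1 over Cdh3, at 2.49 and 1.60 against 1.55 to 2.55 in the controls. Both pairs overlapped with background subtracted too. The pairs were chosen with results of these data known, and the ratios are a description with no test. How often other pairs of genes separate these libraries was not computed.

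**Figure D4:**
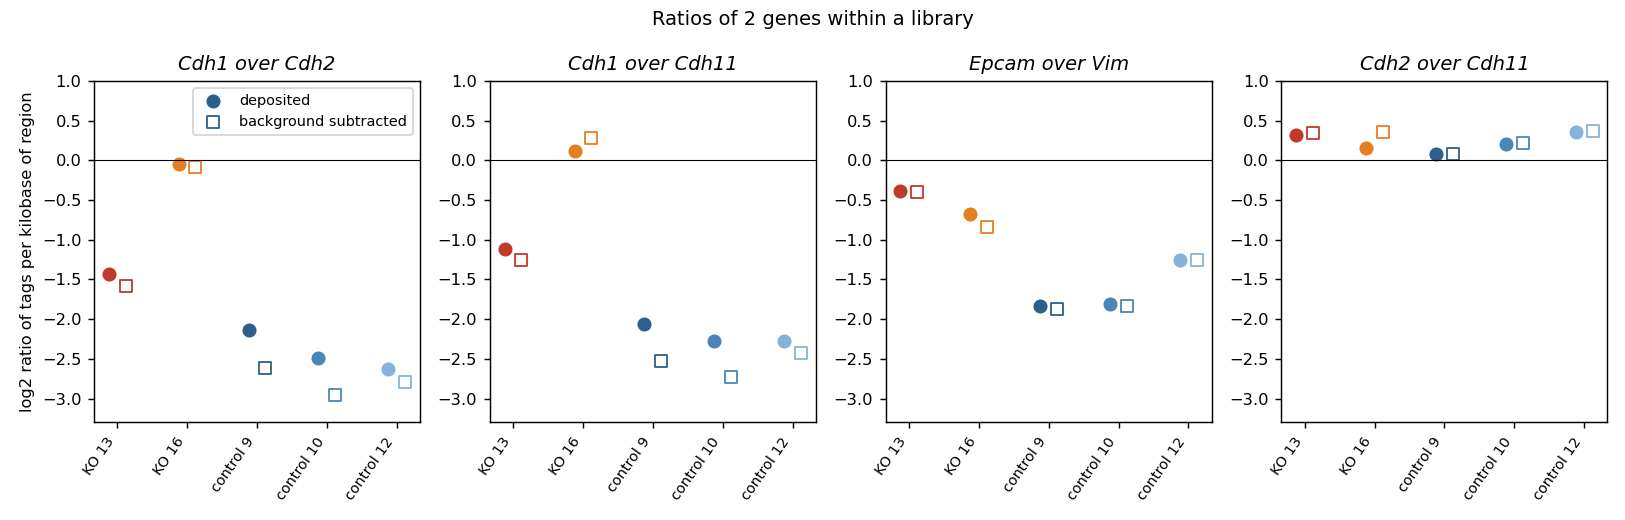
log2 ratio of tags per kilobase of region for 4 pairs of genes in each library, from deposited (filled circles) and background-subtracted tags (open squares). Cdh1 over Cdh2, Cdh1 over Cdh11 and Epcam over Vim are higher in libraries 13 and 16 than in the 3 controls, and Cdh2 over Cdh11 is not.

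Of the repressors, Snai1, Snai2 and Zeb2 were read at low depth. Snai1 (mm9 chromosome 2, 167364527 to 167368311) had 6 and 21 reads in libraries 13 and 16, against 4, 6 and 7 in controls 9, 10 and 12. On deposited values library 16 was at 19.1 (95% exact Poisson interval 11.8 to 29.2), against a highest control of 6.36 (2.56 to 13.1). Scaled, Snai1 was at 4.16 and 10.8 in libraries 13 and 16, against 5.47 to 8.88 in the controls, so the knockout libraries lay on opposite sides. Snai1 had a log2 change of 0.03 (SE 0.63, limma, adjusted p = 0.987).

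Snai2 (mm9 chromosome 16, 14706752 to 14709475), a SNAIL factor of neural crest and its derivatives, had 8 and 4 reads in libraries 13 and 16, against 3, 12 and 8 in the controls. The estimated background of library 16 was 112% of its tags, so no level above background was detectable there. Snai2 had a log2 change of -1.01 (SE 0.67, limma, adjusted p = 0.767). Counts of 3 to 21 reads a library set how finely either SNAIL gene could be read.

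Zeb1 (mm9 chromosome 18, 5491899 to 5592035), a zinc-finger repressor of epithelial genes, was at 54.1 and 120 in libraries 13 and 16, against 53.9, 64.8 and 39.3 in the controls. Library 13 was within the controls and library 16 above them. Background made up 66.7% and 70.8% of its tags in libraries 13 and 16, against 55.4% to 78.6% in the controls. With background subtracted Zeb1 was at 15.7 and 61.9, against 10.7 to 23.0 in the controls. The log2 change was 0.64 (SE 0.46, limma, adjusted p = 0.767), and 0.07 without library 16 (adjusted p = 1). The listed region is 54.4% as long as the RefSeq gene (GRCm38.p6).

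Zeb2 was read over a fragment. Its listed region (mm9 chromosome 2, 44967458 to 44969604) is 2.1 kb long, or 1.6% of the length of the RefSeq gene. It also overlaps the region of Mir5129, and in GENCODE M21 the antisense gene Zeb2os overlaps Zeb2. It held 7 and 9 reads in libraries 13 and 16, against 5, 7 and 3 in the controls. These values do not measure Zeb2 as a whole, and their log2 change was -0.22 (SE 0.62, limma, adjusted p = 0.901).

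Among the other genes of adhesion and transition, 0 passed the test in either direction in every list below (limma, adjusted p under 0.05), and the median log2 change over all tested genes was 0.04. Of 18 other cadherins, 14 lay above and 4 below the median gene, with a median log2 change of 0.45. The median was -0.18 in library 13 and 0.81 in library 16, and with background subtracted -0.57 and 0.07. Many of these regions are long, up to 1039 kb for Cdh13. The 3 of highest control level per kilobase were Cdh24, Cdh5 of endothelium and Cdh6, with log2 changes of -0.43, -0.07 and -0.33. On deposited values Cdh5 was at 122 in each of libraries 13 and 16, above the controls at 46.4 to 76.4. That order held for 50.2% of all tested genes. Scaled, Cdh5 was at 92.9 and 69.2, against 76.4 to 101.5 in the controls, with library 13 within them and library 16 below. For Cdh5 the authors' deposited table gives a log2 fold change of 1.17 with a p-value of 0.00427.

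Of the 6 measured catenins and linkers, 5 lay below the median gene, with a median log2 change of -0.19. Ctnnb1, which encodes beta-catenin, the link between cadherins and alpha-catenin, was at 728 and 162 in libraries 13 and 16, against 650, 654 and 944 in the controls. Library 13 was within the controls and library 16 below them. Log2 changes were -1.10 for Ctnnb1, -0.77 for Ctnnd1, which encodes p120-catenin, and -0.09 for Jup, which encodes plakoglobin.

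Of 12 other transition factors, 9 lay below the median gene, with a median log2 change of -0.54. The median was -0.15 in library 13 and -1.17 in library 16, and with background subtracted the log2 change had a median of -0.20. Sox9, a regulator of neural crest and cartilage, was at 14.5 and 9.81 in libraries 13 and 16, against 52.4, 32.0 and 49.5 in the controls. Both knockout libraries lay below the controls, with a log2 change of -1.78 (SE 0.47, limma, adjusted p = 0.767). Twist1, a transition factor of head mesenchyme, was at 6.93 and 5.16, against 11.97, 10.96 and 15.23 in the controls. On deposited values Twist1 was at 9.09 in each of libraries 13 and 16, within the controls at 7.27 to 10.91. These are few reads, over a region of 1.4 kb. Twist2 had a log2 change of -0.01. Foxc1, a forkhead factor of head mesenchyme, had a log2 change of -0.65.

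Of the regulators of the epithelial state, 9 of 11 lay above the median gene, with a median log2 change of 0.46. The median was 0.10 in library 13 and 0.79 in library 16, and with background subtracted 0.09 and 1.27. Grhl2, an activator of Cdh1, was at 233 and 185 in libraries 13 and 16, against 127, 173 and 235 in the controls. Both knockout libraries were within the controls. Esrp1, a splicing factor of epithelia, was at 308 and 101, against 151, 197 and 286 in the controls, the same split as Epcam. Log2 changes were 0.46 for Grhl1, 0.56 for Grhl3, 0.09 for Ovol1, 0.68 for Ovol2, 0.18 for Esrp2 and -0.30 for Klf4. Their SEs ran from 0.53 to 0.78. Esrp2 was at a deposited 0.91 in control 9, and Ovol2 and Grhl1 were low in the controls, at 0.51 and 0.66 per kilobase. Epithelial adhesion and keratin genes had 8 of 16 members on each side of the median gene and a median log2 change of 0.04. Log2 changes were -0.96 for Cldn6, -0.84 for Krt18 and -0.35 for Cldn4.

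Mesenchymal effector genes had 13 of 16 members below the median gene and a median log2 change of -0.64. The medians were -0.27 in library 13 and -1.07 in library 16, and -0.38 and -0.97 with background subtracted. Col1a1, a fibrillar collagen chain, was at 94.3 and 60.4 in libraries 13 and 16, against 153, 176 and 151 in the controls, and Col3a1 at 455 and 103, against 457, 556 and 604. Both lay below the controls in both libraries, though Col3a1 in library 13 by little. Log2 changes were -1.07 for Col1a1, -1.30 for Col3a1 and -0.76 for Sparc. Genes of TGF-beta signalling, which can induce SNAIL and ZEB factors, had a median of -0.23, and of -0.05 with background subtracted. Before subtraction, log2 changes were -0.76 for Tgfbr1, -0.71 for Smad4 and -0.64 for Smad2.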

How the data were processed

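RNA of 5 pituitaries at e12.5 was depleted of ribosomal RNA and made into strand-specific libraries, per the labels' protocols. Bowtie2, HOMER, edgeR and the build mm9 appear in the submitters' processing notes, without roles or versions. Per the file header, the deposited signal of a gene region is its tags for every 10000000 tags of the library. All values (100.0%) were multiples of 10/11 within 0.01 reads, so reads were recovered. The table puts all regions on the plus strand, and reads of a gene and of an antisense or overlapping gene are not separable. The authors' deposited table of changed genes gives a log2 fold change, fold ratios, a p-value of unstated adjustment and a score per genotype of no stated unit.

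Values were scaled with TMM factors (edgeR 4.0.16) and tested with limma 3.58.1 (R 4.3.3, trend) on log2(value + 1), over 19313 genes whose mean reached 1. Log2 changes refer to value + 1, which shrinks those of low genes. Adjusted p-values are Benjamini-Hochberg over all tested genes, with a threshold of 0.05. TMM scaling was used so that the p-value tests the change relative to most genes. The test was checked on simulated counts. Background came from 405 autosomal receptor genes and was subtracted with a floor of 0. Replicates of a group differed by more than counting noise (chi-square divided by its degrees of freedom, 10.4 or more). Other scalings, filters, pseudocounts, edgeR and DESeq2 1.42.0 tests and leaving out each library were alternatives.

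All members are named. Of each list, the 3 genes of highest control level per kilobase and the TWIST, GRHL, OVOL and ESRP genes are named. Members, lists and tests were chosen with earlier results of these data known. Sox9, Col1a1 and Col3a1 fall under this rule. Of the genes this rule takes, 1 is not reported here. The genes Ctnna1, Ctnna2 and Ctnna3 are not analysed here.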

Additional observations from a re-analysis of the deposited data

How the results depend on the processing

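The count of called genes was 0 with TMM factors and stayed at 0 without scaling, with upper-quartile or DESeq2 size factors, with background subtracted, with either pseudocount, with either filter, with the other choice of region, with edgeR's quasi-likelihood test and at an adjusted p under 0.1. It was 25 with DESeq2. It ran from 0 to 2426 when 1 library was left out, with 2426 without library 13 and 3 without library 16, and it was 2899 without library 13 with background subtracted, an alternative chosen after the data were seen. A lone knockout library is assumed to vary like the controls.

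Of 177 alternative values of the members, 160 kept their direction without passing the threshold and 9 turned. The rest came from fits with library 16 as the only knockout. The 160 include DESeq2 values of members that received no adjusted p. Epcam turned to 0.29 without scaling and to 0.59 and, with background subtracted, 0.61 without library 16. Snai1 turned to -0.56 and, with background subtracted, -0.69 without library 16, and to -0.06 and -0.12 without controls 9 and 10. Zeb2 turned to 0.62 without scaling and 0.15 without library 13 with background subtracted. Without scaling the median gene was at 0.97. Relative to the median gene of that fit, Epcam was at -0.68 and Zeb2 at -0.35, so neither turned on that measure. The causes of the turns were not tested. Without subtraction, leaving out 1 library gave -2.00 to 0.59 for Epcam and -0.56 to 0.63 for Snai1, and with subtraction leaving out library 13 or 16 gave -1.34 to 0.61 and -0.69 to 1.37. Without library 13, Vim, Cdh11, Cdh2 and Epcam passed the threshold, with and without background subtracted, as did 16.1% and 12.6% of all tested genes. Over all alternatives the log2 change of Vim ran from -2.94 to -0.64 and that of Cdh11 from -2.35 to -0.26. That of Cdh2 ran from -2.22 to -0.24 and that of Cdh1 from 0.16 to 1.44. The ends of -0.26 for Cdh11, -0.24 for Cdh2 and 1.44 for Cdh1 came from the fit without scaling. Relative to the median gene of that fit they were -1.23, -1.21 and 0.47. No paired analysis was possible because the labels do not say which knockout and control libraries belong together. Depth limits Snai1, Snai2 and Zeb2, at 3 to 21 reads a library.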

Other observations

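The short region of Zeb2 is not alone in the deposited table. Of 18605 names matched by symbol to RefSeq (GRCm38.p6), 125 (0.672%) have a listed region under 10% of the length of the RefSeq gene, and 1493 (8.02%) one under 50%. The median region covers 93.9% of the RefSeq length, close to the 98.8% of Cdh1 and the 90.6% of Vim. Levels of the short regions describe the listed fragment and not the gene.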
